A study of Mus musculus with 11 samples.

Results

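The expression of 8 genes of nitric oxide and arginine metabolism was followed in BV2 microglial cells treated with amino-terminal fragments of apolipoprotein E. They were Nos2, Gch1, Ass1, Asl, Slc7a2, Arg1, Arg2 and Odc1, chosen by name as 8 of the 36529 genes listed by symbol in the counts, and all 8 were found. Nos2 was picked out because its values were known to spread widely between the treated samples, so its levels are given as a description with no test. BV2 is a transformed line of mouse microglia (strain label C57BL/6), and all 11 samples came from it. In the nApoE4 experiment, 3 samples received residues 1 to 151 of ApoE4 at 25 µg/ml for 5 h and 3 were untreated. In the nApoE3 experiment, 2 samples received the same residues of ApoE3 at the same dose and time, and 3 were untreated. The fragments differ by a single amino acid and carried a histidine tag. The labels name a PBS vehicle for untreated cells while the study's methods name conditioned media, so which one the controls received is not known. Comparisons were made within each experiment, and fragment and experiment cannot be told apart. The paper speaks of 3 independent measurements and of 3 trials that were averaged, while the series holds 2 nApoE3 samples. Neither the paper nor the labels say which samples of a group were separate cultures. The p-values therefore measure the spread between these samples, which may be technical.

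Nitric oxide is made from arginine by nitric oxide synthases, and Nos2 encodes the inducible form that activated macrophages and microglia of mice are known for. The synthase needs tetrahydrobiopterin, whose synthesis begins with GTP cyclohydrolase 1 (Gch1). Citrulline, the other product of the synthase, is turned back into arginine by argininosuccinate synthase (Ass1) and argininosuccinate lyase (Asl), while the cationic amino acid transporter CAT2 (Slc7a2) brings arginine in from outside. Arginases compete for the same substrate: Arg1 is the cytosolic form and a common marker of alternatively activated macrophages, and Arg2 is the mitochondrial form. They yield ornithine, which ornithine decarboxylase (Odc1) commits to polyamines.

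Promoter sequence was at hand for Gch1, Ass1 and Odc1 (RefSeq, build GRCm38.p6). Those of Gch1 and Ass1 are shown because these genes supply the cofactor and the recycled substrate of the synthase and were higher with both fragments. The capitals mark matches to 3 short letter patterns, searched on both strands: GGG and CC set 5 bases apart (NF-kB-like), TGACG (the CRE half-site) and CCAAT. The Gch1 sequence lies at chr14:47189414-47189663 on the minus strand and ends just before the gene's start, and the Ass1 sequence lies at chr2:31470020-31470206 on the plus strand and ends before the outermost annotated start. Both read 5′ to 3′ along the gene.
Gch1: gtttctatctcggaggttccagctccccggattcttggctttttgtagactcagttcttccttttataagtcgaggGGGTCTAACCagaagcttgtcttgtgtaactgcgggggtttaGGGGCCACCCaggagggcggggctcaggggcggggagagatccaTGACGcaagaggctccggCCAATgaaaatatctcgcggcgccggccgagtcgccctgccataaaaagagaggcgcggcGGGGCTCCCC
Ass1: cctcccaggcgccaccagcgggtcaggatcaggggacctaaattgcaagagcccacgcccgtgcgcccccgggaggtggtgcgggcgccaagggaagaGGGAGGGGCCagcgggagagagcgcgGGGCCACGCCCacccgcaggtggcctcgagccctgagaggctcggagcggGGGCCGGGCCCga
The Gch1 sequence of 250 bases held GGGTCTAACC from -174 to -165 of the start, GGGGCCACCC from -132 to -123 and GGGGCTCCCC from -10 to -1, the latter pair matching on both strands. It also held TGACG from -88 to -84 and CCAAT from -70 to -66. In the 187 bases of Ass1, GGGAGGGGCC and the overlapping matches within GGGCCACGCCC and GGGCCGGGCCC are in capitals. A further NF-kB-like match, GGGCGGGGCC from -63 to -54 of the Ass1 start, lies past the printed bases. The NF-kB-like letters are common: they stood in 45.8% of 32851 promoter windows of 250 bases, TGACG stood in 17.8% and CCAAT in 33.9%. The letters TTCNNNGAA (GAS-like), present in 7.02% of windows, had no match before the start of any of the 3 genes. The letters CACGTG (E-box), in 6.02% of windows, had a match from -36 to -31 of the Ass1 start, past the printed bases, and none before the starts of Gch1 and Odc1. A match describes letters only.

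Libraries of the nApoE4 experiment held 39732710 to 44162511 counts on genes, and those of the nApoE3 experiment 55809688 to 69768666. Levels are given in CPM, counts scaled to library size after TMM normalization over all 11 samples, and 3 counts, the smallest level taken as shown, corresponded to 0.0649 to 0.0758 CPM and 0.0429 to 0.0524 CPM in these experiments. Such floors and the counting intervals below cover counting error only. Replicates correlated at 0.992 to 0.996 across genes. Of 12 marker genes of microglia and macrophages, 8 or 9 in each group were above 1 CPM in every sample, Csf1r (669 to 830 CPM), Ptprc and Adgre1 among them. P2ry12 was listed at 0 in all samples, Aif1 and Cx3cr1 reached 0.143 and 0.712 CPM at most, C1qa had 0.449 to 3.46 CPM and Trem2 0.358 to 62.2. Of the endothelial markers, Cdh5 and Pecam1 reached 0.871 and 1.66 CPM at most and Kdr 178, and their sum was 153 to 179 CPM in the controls of nApoE4, 62.6 to 72.6 with nApoE4, 62.9 to 66.9 in the controls of nApoE3 and 41.2 to 46.1 with nApoE3. The sum of 4 astrocyte markers went from 1.23 to 1.41 CPM to 6.09 to 7.07 in the nApoE4 experiment and from 1.055 to 1.204 to 4.20 to 4.37 in the nApoE3 experiment, most of it Slc1a2, with Gfap at 0.0945 at most. The sum of 4 neuron markers, mostly Tubb3, was 1.95 to 2.56 CPM in the controls of nApoE4, 5.28 to 6.35 with nApoE4, 1.06 to 1.41 in the controls of nApoE3 and 1.35 to 1.41 with nApoE3. That of 4 oligodendrocyte markers, in the same order, was 11.5 to 14.4, 9.40 to 11.8, 23.9 to 24.7 and 21.2 to 24.5 CPM, with Mog at 0 throughout. Sums of 3 T cell and 4 fibroblast markers reached 0.0331 and 0.375 CPM at most. The part of these cells in the results was not tested. In bulk RNA, fewer cells expressing a gene and less RNA per cell cannot be told apart.

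Nos2, Gch1, Slc7a2, Ass1, Arg2 and Odc1 were higher in every treated sample than in every control of the same experiment, with either fragment. The share of all genes that separated in this way was not counted, so the separation is not read as a trait of these genes. With nApoE4, 5 of the 7 genes other than Nos2 rose (Gch1, Slc7a2, Ass1, Arg2 and Odc1), Arg1 fell and Asl did not pass the test, where 57.2% of all 14240 genes tested passed in either direction, 28.6% higher and 28.6% lower (edgeR quasi-likelihood test, adjusted p-value under 0.05). With nApoE3, 6 of the 7 rose (the same 5 and Asl) and Arg1 did not pass, where 67.7% of 14817 genes passed, 33.1% higher and 34.6% lower. The median log2 fold change of the 7 genes was 1.18 with nApoE4 and 1.17 with nApoE3, and over all genes tested the median size of a change, whatever its sign, was 0.36 and 0.34. All 8 genes passed the filter on low counts in both experiments.

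**Figure D1:**
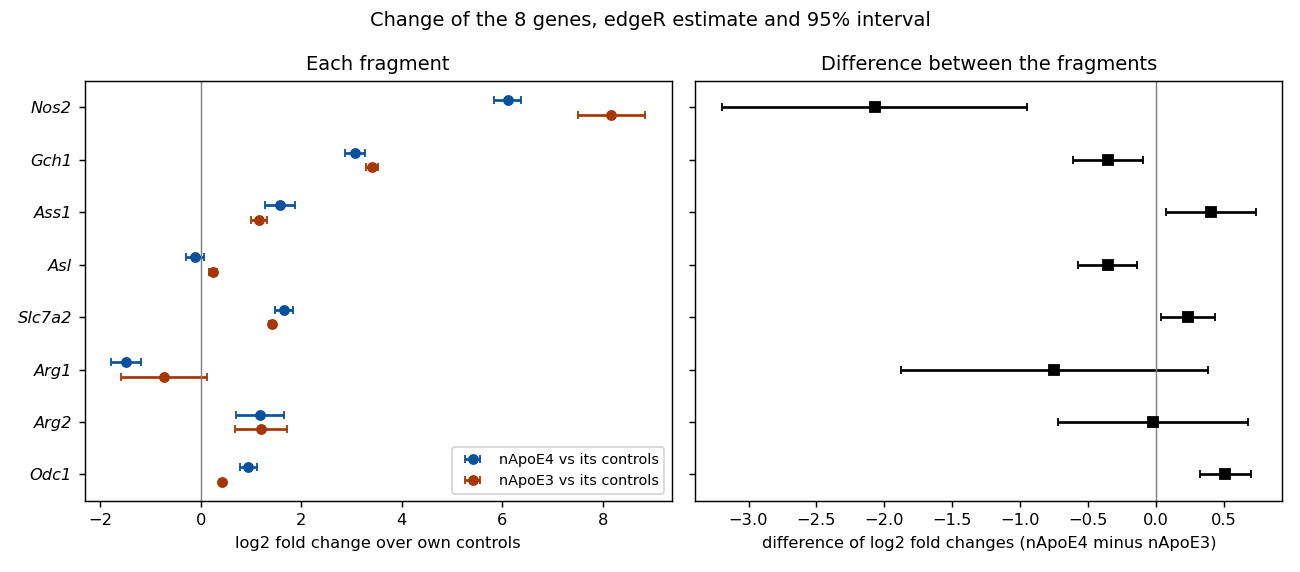
Left, log2 fold change over own controls (x axis) of the 8 genes with nApoE4 (blue) and nApoE3 (red-brown). Right, the difference of these changes, nApoE4 minus nApoE3. Points are edgeR estimates and bars 95% intervals. The bars of Nos2 are not to be read as a test, because the gene was picked for its values in these samples. Nos2 stands farthest right on the left panel, at 6.11 and 8.17, and Arg1 is the only gene left of 0 with both fragments.

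Nos2 (chromosome 11, 78920787 to 78960254, plus strand, GRCm38) was barely counted in untreated cells and reached 36.3 to 59.3 CPM in treated ones. In the controls of nApoE4 it had 22, 31 and 26 counts, or 0.531, 0.705 and 0.563 CPM, and in the nApoE4 samples 1906, 1597 and 1550 counts, or 45.0, 38.7 and 39.2 CPM. In the controls of nApoE3 it had 11, 12 and 9 counts, or 0.157, 0.195 and 0.157 CPM, and in the nApoE3 samples 3584 and 2126 counts, or 59.3 and 36.3 CPM. No treated sample came near a control, and the 3 nApoE4 samples fell between the 2 nApoE3 samples.

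The group means of Nos2 were 0.599 ± 0.0927 CPM (SD, n = 3) in the controls of nApoE4 and 40.9 ± 3.53 (SD, n = 3) with nApoE4, and 0.170 ± 0.0217 (SD, n = 3) in the controls of nApoE3 and 47.8 ± 16.3 (SD, n = 2) with nApoE3. Its log2 fold change was 6.11 with nApoE4, or 68.9-fold, which ranked 54 from the top of 14240 genes. With nApoE3 it was 8.17, or 288-fold, which ranked 3 of 14817. The larger fold with nApoE3 came with a lower baseline. The untreated level differed 3.53-fold between the experiments, with controls that did not overlap, while the treated means stood at a ratio of 1.17 (nApoE3 over nApoE4) with samples that did overlap. The baseline rested on few reads, 79 counts summed over the 3 controls of nApoE4 (exact Poisson 95% interval 62.5 to 98.5) and 32 over those of nApoE3 (21.9 to 45.2).

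**Figure D2:**
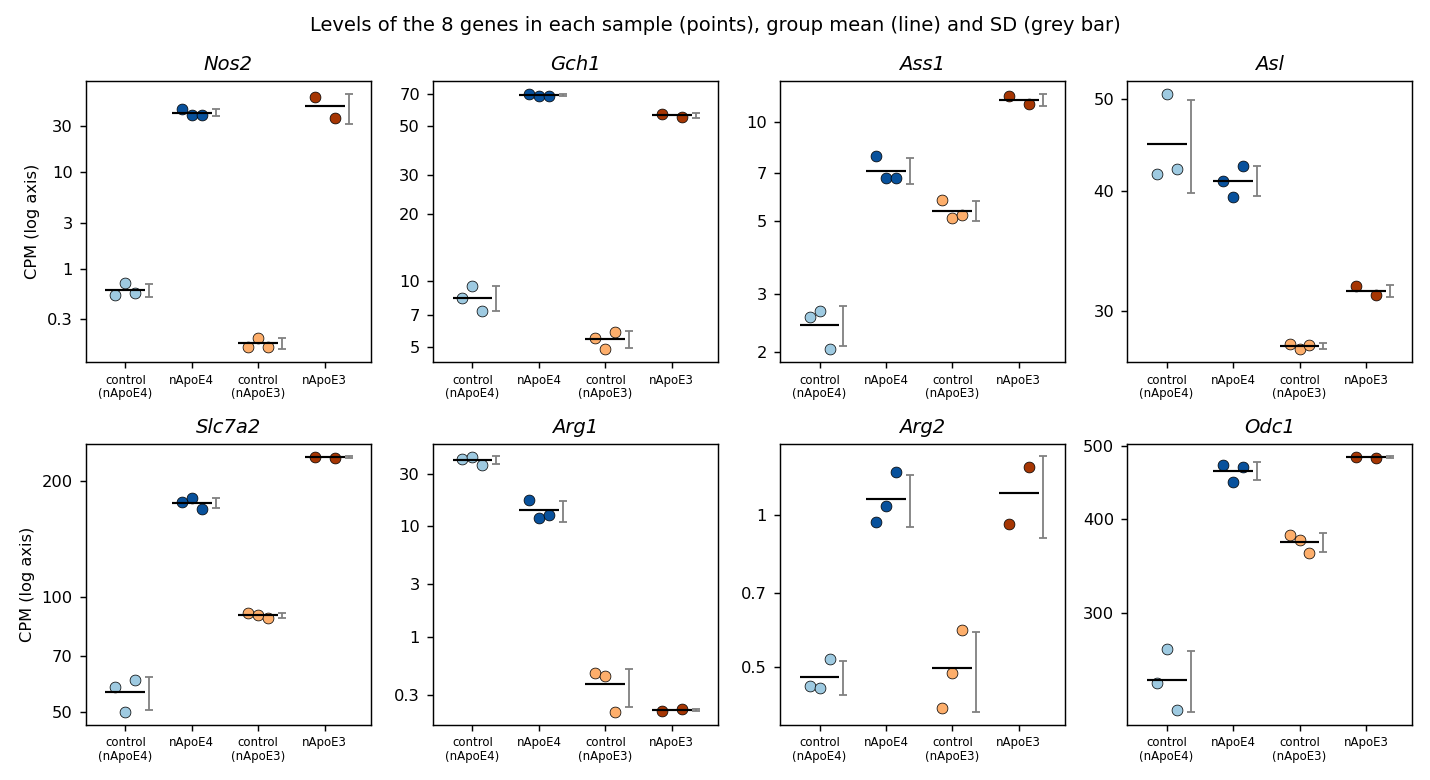
CPM of each gene on a log axis in the 4 groups. Points are samples, black lines group means and grey bars the SD (n = 3, or 2 with nApoE3). For Nos2 the 2 nApoE3 samples, at 59.3 and 36.3 CPM, lie on both sides of the nApoE4 samples, and for Arg1 the groups of the nApoE4 experiment lie far above those of the nApoE3 experiment.

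The 2 nApoE3 samples stood far apart on Nos2. Replicate 1 had 1.64 times the level of replicate 2, while the other members in this group with a mean of at least 10 CPM (Gch1, Ass1, Asl, Slc7a2 and Odc1) had ratios of higher to lower sample of 1.00 to 1.06. Among the 8499 genes with a mean of at least 10 CPM there, Nos2 ranked 2 by that ratio, against a median of 1.03 and a 95th percentile of 1.11. Because Nos2 was picked for this spread, its high rank follows from the choice and is a description only. Over its control mean, Nos2 was 349.6-fold higher in replicate 1 and 214-fold higher in replicate 2. The nApoE4 samples were closer to each other, at 75.1, 64.5 and 65.3-fold, and their ratio of highest to lowest, 1.16, ranked 1204 of 8809 genes (median 1.09). Arg1 varied more in that group, with a ratio of 1.48 and rank 25.

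In that set, 5 genes were at least 1.3 times higher in nApoE3 replicate 1 than in replicate 2, and they are named here after their values were seen. Rnaset2b, a ribonuclease gene with a near-identical copy that makes its count uncertain, had the highest ratio (2.15), followed by Nos2, the predicted gene Gm5601 (1.47), Bnip3 (1.42), a mitophagy receptor, and Ak4 (1.31), a mitochondrial adenylate kinase. Bnip3 had 96.3 CPM in replicate 1 and 68.0 in replicate 2, against 64.7, 65.8 and 75.9 in the controls of nApoE3. In the nApoE4 experiment Bnip3 was lower in every treated sample, with 383, 453 and 341 CPM in the controls and 83.0, 69.5 and 74.6 with nApoE4. No gene of the 8499 was as far apart as Nos2 in the opposite direction.

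**Figure D3:**
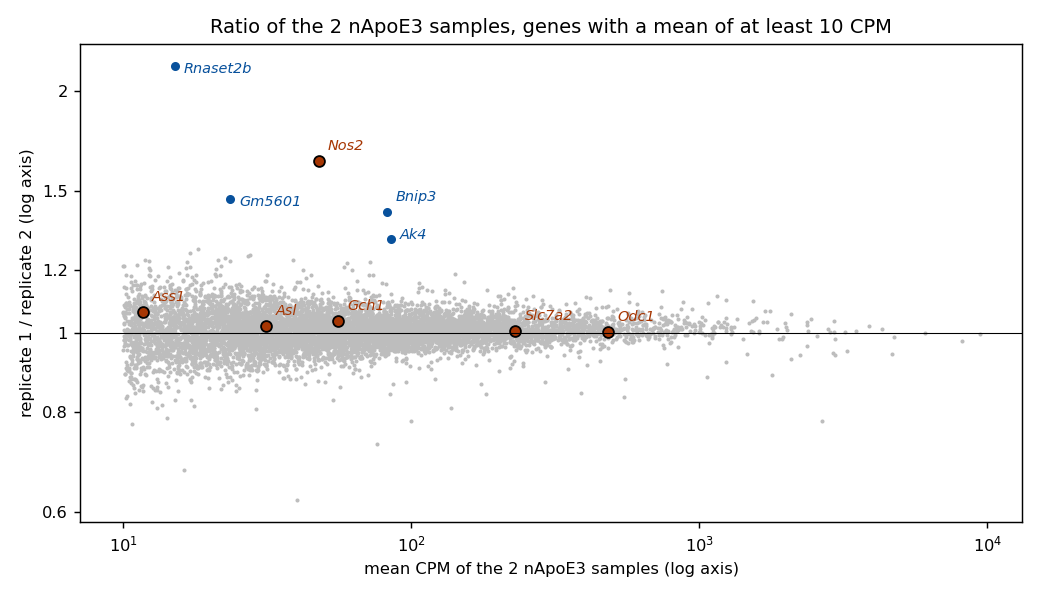
Ratio of nApoE3 replicate 1 to replicate 2 (log y axis) against the mean CPM of the pair (log x axis) for the 8499 genes with a mean of at least 10 CPM. Each grey point is a gene, large red-brown points are members and blue points the other genes named in the text. Nos2, at 1.64, stands above the cloud, and the other members plotted lie between 1.00 and 1.06.

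Gch1 (chromosome 14, 47153895 to 47189413, minus strand), which encodes the rate-limiting enzyme of tetrahydrobiopterin synthesis and whose promoter is printed above, rose more than any member other than Nos2 with both fragments. It had 8.34, 9.46 and 7.27 CPM in the controls of nApoE4 and 69.8, 68.3 and 68.6 with nApoE4. It had 5.52, 4.90 and 5.86 CPM in the controls of nApoE3 and 56.8 and 54.7 with nApoE3. The groups did not overlap in either experiment, and the treated samples of each were within a few percent of each other. The log2 fold change was 3.07 with nApoE4 (SE 0.09, adjusted p-value 3.57e-09), or 8.37-fold, and 3.41 with nApoE3 (SE 0.06, adjusted p-value 1.31e-13), or 10.6-fold. These ranked 288 of 14240 and 248 of 14817 from the top.

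Of the recycling enzymes, Ass1 rose with both fragments and Asl passed the test with nApoE3. Ass1 (chromosome 2, 31470207 to 31520672, plus strand) had 2.56, 2.66 and 2.03 CPM in the controls of nApoE4 and 7.89, 6.75 and 6.75 with nApoE4, and it had 5.82, 5.09 and 5.24 CPM in the controls of nApoE3 and 12.1 and 11.4 with nApoE3. It rose by a log2 fold change of 1.58 (SE 0.13, adjusted p-value 5.17e-06) and 1.17 (SE 0.07, adjusted p-value 2.61e-08). The untreated level was 2.23 times higher in the nApoE3 experiment, so that the nApoE4 samples stood only a little above the untreated samples of nApoE3.

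Asl (chromosome 5, 130011258 to 130029247, minus strand) had 41.7, 50.6 and 42.2 CPM in the controls of nApoE4 and 41.0, 39.5 and 42.5 with nApoE4, so these groups overlapped. Its log2 fold change there was -0.11 (95% interval -0.29 to 0.08, adjusted p-value 0.291). In the nApoE3 experiment Asl had 27.7, 27.4 and 27.6 CPM in the controls and 31.8 and 31.1 with nApoE3. The groups did not overlap, and the rise was small, a log2 fold change of 0.24 (SE 0.04, adjusted p-value 9.67e-05). Replicates were closer in that experiment, with a biological coefficient of variation of 0.0262 against 0.0838 in the nApoE4 experiment.

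Slc7a2 (chromosome 8, 40862396 to 40922308, plus strand), the arginine transporter, had 58.1, 50.1 and 60.7 CPM in the controls of nApoE4 and 176, 180 and 169 with nApoE4. In the nApoE3 experiment it had 90.8, 89.3 and 87.8 CPM in the controls and 231 and 229 with the fragment. It rose by a log2 fold change of 1.66 (SE 0.08, adjusted p-value 1.13e-07) and 1.41 (SE 0.02, adjusted p-value 1.06e-13). The order of the 4 groups, controls of nApoE4, controls of nApoE3, nApoE4 and nApoE3, showed no overlap between neighbours. Exons of Slc7a2 overlap Gm26584, a lincRNA gene on the opposite strand, and the strand setting of the counting is not given in the sources used here.

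Arg1 (chromosome 10, 24915221 to 24927484, minus strand) was the member with the widest gap between the untreated samples of the experiments. It had 41.0, 42.1 and 36.1 CPM in the controls of nApoE4 but 0.472, 0.438 and 0.209 CPM (33, 27 and 12 counts) in those of nApoE3, a log2 difference of 6.69 (SE 0.16, adjusted p-value 1.00e-07), or 103-fold. By size this ranked 9 of the 14249 genes tested between the control groups. With nApoE4 Arg1 had 17.5, 11.8 and 12.7 CPM, below every control, and fell by 1.48 on the log2 scale (SE 0.13, adjusted p-value 8.15e-06), or 2.79-fold. With nApoE3 it had 13 counts in each sample, or 0.215 and 0.222 CPM, inside the range of the controls. The log2 fold change of -0.74 did not pass there (95% interval -1.59 to 0.12, adjusted p-value 0.116). Without control replicate 3, the lowest of the nApoE3 controls, it was -0.996 (adjusted p-value 0.0188), so the missed call depended on that library.

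Arg2 (chromosome 12, 79130777 to 79156301, plus strand), the mitochondrial arginase, was low in all samples and went the other way to Arg1 with nApoE4. It had 0.458, 0.455 and 0.519 CPM in the controls of nApoE4 and 0.968, 1.04 and 1.21 with nApoE4, and 0.414, 0.487 and 0.593 CPM in the controls of nApoE3 and 0.960 and 1.245 with nApoE3. The groups did not overlap in either experiment, and the log2 fold change was 1.18 (SE 0.21, adjusted p-value 0.00108) and 1.2 (SE 0.23, adjusted p-value 0.000651). Its exons overlap Vti1b and an antisense gene on the opposite strand, so without a stated strand setting its few counts are uncertain.

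Levels per kilobase of exon (RPKM) allow the synthase and the arginases to be set side by side. In the controls of nApoE4, Arg1 had 153, 118 and 127 times the RPKM of Nos2. With nApoE4 the order was turned, and Nos2 had 1.301, 1.65 and 1.56 times the RPKM of Arg1. The controls of nApoE3 held far less Arg1, only 5.94, 4.46 and 2.64 times the RPKM of Nos2, and with nApoE3 Nos2 had 139 and 82.6 times that of Arg1. The treated cells of the experiments thus had like RPKM of Nos2 (means 9.28 with nApoE4 and 10.8 with nApoE3) beside RPKM of Arg1 that differed 64.1-fold. The ratios of the nApoE3 experiment and the 64.1-fold gap rest on few counts. Nos2 had 9 to 12 in each nApoE3 control, and Arg1 had 13 in each nApoE3 sample. Arg1 exceeded Arg2 in RPKM in all 6 samples of the nApoE4 experiment and in none of the 5 of the nApoE3 experiment. In nApoE3 control replicate 1, Arg1 had more counts than Arg2, 33 against 29, so the order there rests on exon length. Control replicate 2 had 27 counts of Arg1 against 30 of Arg2, and the Arg2 counts are uncertain because of the overlapping genes.

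**Figure D4:**
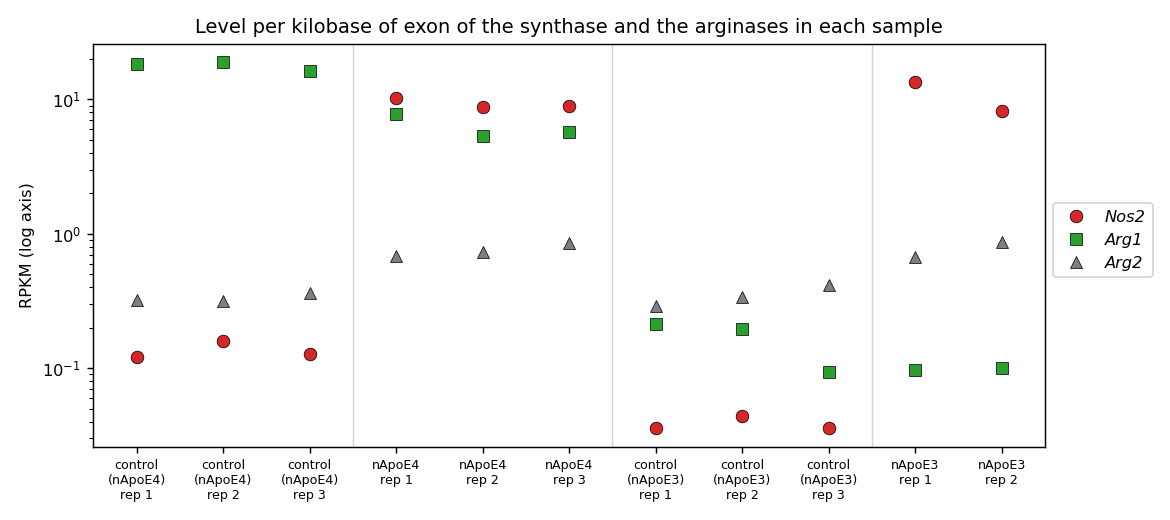
RPKM (log axis) of Nos2, Arg1 and Arg2 in each of the 11 samples, grouped by vertical lines. Nos2 lies under Arg1 in all 6 controls and over it in all 5 treated samples, and Arg1 lies over Arg2 in the nApoE4 experiment alone. Both arginases and Nos2 had few counts in the controls of nApoE3, and Arg1 had 13 counts in each nApoE3 sample.

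Odc1 (chromosome 12, 17544794 to 17551505, plus strand), the first step from ornithine to polyamines, was the most abundant member by RPKM in every group, with means of 71.8 to 142. It had 242, 268 and 223 CPM in the controls of nApoE4 and 472, 449 and 470 with nApoE4. In the nApoE3 experiment it had 382, 376 and 360 CPM in the controls and 484 and 483 with the fragment. It rose by a log2 fold change of 0.95 with nApoE4 (SE 0.08, adjusted p-value 3.96e-06) and 0.42 with nApoE3 (SE 0.02, adjusted p-value 2.38e-09). The treated means were close, at a ratio of 1.04, and the untreated means were not, at a ratio of 1.52 (nApoE3 over nApoE4 for both).

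The changes with nApoE4 and nApoE3 were set against each other with an interaction term in a fit of all 11 samples. Of the 7 members other than Nos2, 3 passed, where 28.3% of 15287 genes passed, 14.4% higher and 13.9% lower. The log2 fold change was higher with nApoE4 for Odc1 and higher with nApoE3 for Gch1 and Asl. Asl had not risen with nApoE4. The difference for Odc1, nApoE4 minus nApoE3, was 0.51 on the log2 scale (SE 0.09, adjusted p-value 0.000698). It was -0.35 for Gch1 (95% interval -0.61 to -0.09, adjusted p-value 0.0423) and -0.36 for Asl (95% interval -0.57 to -0.14, adjusted p-value 0.0185). Ass1 (0.41, 95% interval 0.08 to 0.74, adjusted p-value 0.0652), Slc7a2 (0.24, 0.04 to 0.43, 0.0722), Arg1 (-0.75, -1.88 to 0.38, 0.324) and Arg2 (-0.02, -0.72 to 0.68, 0.972) did not pass, and these intervals do not show that the fragments act alike. For Nos2 the difference was -2.07, given with no test. The call for Gch1 was lost in 9 of the 11 fits that left out 1 sample, with adjusted p-values of 0.0588 to 0.141, and held only without replicate 3 of either control group. The call for Asl was lost without nApoE3 replicate 1 (adjusted p-value 0.0803) or 2 (0.0536), and that for Odc1 held in all 11 (adjusted p-values 1.44e-06 to 0.00687).

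Most of the members differed between the untreated cells of the experiments as well. Of the 7 other than Nos2, 3 were higher in the controls of nApoE4 (Arg1, Asl and Gch1), 3 were lower (Ass1, Slc7a2 and Odc1) and Arg2 did not pass, where 69.3% of 14249 genes passed, 34.9% higher and 34.4% lower. The log2 differences, nApoE4 controls minus nApoE3 controls, were 0.69 for Asl, 0.61 for Gch1, -1.17 for Ass1, -0.68 for Slc7a2 and -0.62 for Odc1, with adjusted p-values of 6.26e-05 to 0.00189.

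The genes whose level followed Nos2 most closely over the 11 samples were Gbp3, an interferon-inducible guanylate-binding protein, Vasp, an actin regulator, Tarm1, a receptor of myeloid cells, Tnfrsf1b, the TNF receptor TNFR2, and Rnf114, a ubiquitin ligase (Pearson's r 0.996 to 0.998 on log2(CPM + 0.1), 9357 genes). Gbp3 had 8.03 to 8.73 CPM in the controls of nApoE4, 113 to 126 with nApoE4, 4.19 to 4.65 in the controls of nApoE3 and 151 to 162 with nApoE3. An r above 0.9 was reached by 614 of the 9357 genes, so a high value alone does not set a gene apart. Gch1 ranked 16 (0.994), and Slc7a2 (0.872), Odc1 (0.715), Ass1 (0.702), Asl (0.249) and Arg1 (0.0325) were less like Nos2. Once the group means were removed, the likeness of Gch1 was 0.232 and the closest genes were Snn, Gcdh, Pdk1, Tmem189 and Tmem64 (0.926 to 0.962). These values include the controls, where Nos2 had only 9 to 31 counts per sample, so its deviations there carry much counting error. Pdk1, a kinase that inhibits pyruvate dehydrogenase, had 114 and 99.0 CPM in the nApoE3 samples, the higher in the sample with more Nos2, but 166.6 to 170.5 in their controls. The 2 deviations of the nApoE3 group are equal and opposite by construction. All these are descriptions.

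Around the members, 87 genes of 7 neighbouring lists were looked at in the same fits. With nApoE4, 69 of them could be tested, of which 18 rose and 25 fell, and with nApoE3, 67 could be tested, of which 24 rose and 28 fell. Over all genes tested, 28.6% rose and 28.6% fell with nApoE4, and 33.1% rose and 34.6% fell with nApoE3, which is the background for these counts and those of each list below. No list was tested as a set, and the median over all genes tested was 0.00 on the log2 scale with either fragment.

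Of 9 tested genes for the other nitric oxide synthases and their regulators, 3 fell and the other 6 did not pass with nApoE4 (median log2 fold change -0.14), and 2 rose and 6 fell with nApoE3 (median -0.19). Nos1, the neuronal synthase, fell from 10.9 ± 2.41 to 6.80 ± 0.961 CPM with nApoE4 (SD, log2 fold change -0.65, adjusted p-value 0.00844) and from 2.41 ± 0.0481 to 1.66 ± 0.0948 with nApoE3 (-0.50, adjusted p-value 0.00686). Nostrin, which regulates the traffic of the endothelial synthase, fell from 26.6 ± 0.748 to 14.6 ± 0.194 CPM with nApoE3 (-0.82, adjusted p-value 1.05e-08) and less with nApoE4 (-0.22, adjusted p-value 0.0283), and the difference of the changes passed the test (0.59, adjusted p-value 0.000395).

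The rest of the tetrahydrobiopterin list leaned the other way to Gch1. Of 7 tested genes, 5 fell and the other 2 did not pass with nApoE4 (median -0.27), and 1 rose and 5 fell with nApoE3 (median -0.35). Gchfr, whose protein mediates feedback inhibition of the Gch1 enzyme, was low and fell with both, by 0.80 (adjusted p-value 0.0292) and by 0.68 (adjusted p-value 0.0065) on the log2 scale.

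Of the other cationic amino acid transport genes, 4 rose and 4 fell of 9 tested with nApoE4 (median 0.20), and 4 rose and 2 fell of 8 tested with nApoE3 (median 0.14). The genes named here are Slc3a2, the heavy chain that light-chain transporters pair with, and Slc7a1, the transporter CAT1. Slc3a2 rose from 386 ± 37.7 to 773 ± 26.8 CPM with nApoE4 (log2 fold change 1.02, SE 0.08) and from 435 ± 7.43 to 748 ± 16.8 with nApoE3 (0.83, SE 0.02). Slc7a1 rose from 302 ± 36.2 to 538 ± 34.1 CPM with nApoE4 (0.85, adjusted p-value 4.80e-05) and from 333 ± 7.5 to 414 ± 2.01 with nApoE3 (0.36, adjusted p-value 8.77e-09), and this difference passed the test (0.48, adjusted p-value 0.00639).

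In the urea cycle and the ornithine, proline and creatine branches, 2 genes rose and 5 fell of 10 tested with nApoE4 (median -0.25), and 1 rose and 5 fell of 9 with nApoE3 (median -0.17). Pycr1, the last enzyme of proline synthesis, rose with nApoE4 from 21.7 ± 0.232 to 33.5 ± 1.36 CPM (0.65, SE 0.06) and had 15.2 ± 0.0984 and 14.1 ± 0.290 CPM in the nApoE3 experiment (-0.06, adjusted p-value 0.295), and the difference passed the test (0.69, adjusted p-value 1.43e-05). Gamt, the last enzyme of creatine synthesis, fell by 0.87 with nApoE4 (adjusted p-value 0.000545) and by 0.65 with nApoE3 (adjusted p-value 1.16e-05).

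Beside Odc1, the 16 tested genes of polyamine metabolism were divided, with 2 higher and 5 lower with nApoE4 (median -0.16) and 6 higher and 4 lower with nApoE3 (median -0.00). Smox, the spermine oxidase, took opposite directions. It fell from 43.6 ± 0.861 to 25.6 ± 1.40 CPM with nApoE4 (log2 fold change -0.75, adjusted p-value 4.63e-06) and rose from 25.6 ± 0.243 to 33.4 ± 2.52 with nApoE3 (0.43, adjusted p-value 3.94e-06), a difference of -1.19 (SE 0.08, adjusted p-value 3.39e-07). Paox, the peroxisomal polyamine oxidase, fell with both, by 0.41 and by 1.297 on the log2 scale, and the difference passed the test (0.87, adjusted p-value 0.00109).

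Of 9 tested genes for the nitric oxide receptor, cyclic GMP and denitrosylation, 6 rose and the other 3 did not pass with nApoE4 (median 0.40). Of 9 tested with nApoE3, 6 rose and 2 fell (median 0.66). Cybrd1 was tested with nApoE4 alone and Gucy1a2 with nApoE3 alone, so the medians cover unlike genes. The median with nApoE3 is the value of Gucy1a2, which had 0.205 to 0.414 CPM with nApoE3 and did not pass. The receptor subunits Gucy1a3 and Gucy1b3 had too few counts to be tested. Txnrd1, the cytosolic thioredoxin reductase, rose from 221 ± 6.57 to 735 ± 32.8 CPM with nApoE4 (1.75, SE 0.07) and from 439 ± 7.57 to 1239 ± 72.0 with nApoE3 (1.54, SE 0.03). Prkg1, a cyclic GMP-dependent kinase, rose from 12.03 ± 2.26 to 24.6 ± 7.75 CPM (1.05, adjusted p-value 0.00271) and from 14.4 ± 0.133 to 22.3 ± 0.144 (0.67, adjusted p-value 2.92e-08).

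Markers of alternative activation, the state in which macrophages are known for Arg1, were mixed. Of 9 tested with nApoE4, 4 rose and 3 fell (median 0.07), and of 9 tested with nApoE3, 4 rose and 4 fell (median -0.02). Mgl2 was tested with nApoE4 alone and Clec10a with nApoE3 alone. Clec10a, counted as a rise, had 0.171 and 1.21 CPM with nApoE3 against 0.0487 to 0.186 in the controls, so its call rests on 1 library. Pparg, a lipid-sensing nuclear receptor, fell from 1.48 ± 0.382 to 0.260 ± 0.0215 CPM with nApoE4 (-2.47, adjusted p-value 3.85e-05) and from 0.648 ± 0.103 to 0.202 ± 0.00431 with nApoE3 (-1.63, adjusted p-value 0.000333). Ccl22, a chemokine that attracts regulatory T cells, went from 0.0455 to 0.0965 CPM to 2.40 to 3.71 with nApoE4 (adjusted p-value 7.7e-07) and from 0.0143 to 0.0175 CPM to 0.381 to 0.512 with nApoE3 (adjusted p-value 5e-06). No fold is given for it because the controls were at or near the floor.

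**Figure D5:**
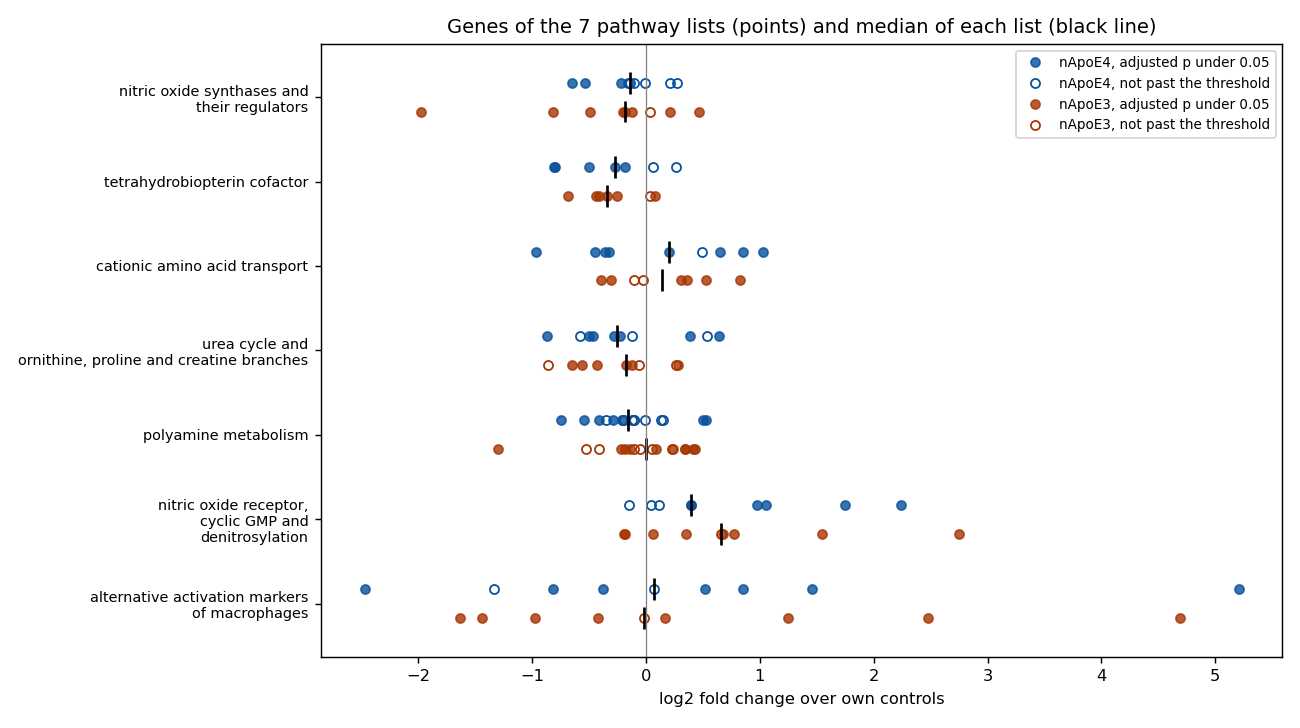
Log2 fold change over own controls (x axis) of the tested genes of the 7 lists (rows), with nApoE4 in blue above nApoE3 in red-brown. Filled points had an adjusted p-value under 0.05, open points did not, and the black line is the median of the list. The medians lie between -0.35 and 0.66, and the point farthest right in each colour is Ccl22. The genes tested in a list can differ between the fragments.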

How the data were processed

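RNA of 11 BV2 samples was sequenced as single-end reads. Per the study's methods and the submitters' processing notes, the authors removed adapters with Trim Galore 0.5.0, checked quality with FastQC 0.11.8, mapped reads to GRCm38.p6 with HISAT2 2.1.0 and deposited raw HTSeq 0.11.0 counts per gene, not normalized, with tallies of uncounted reads, which were left out (76.0 to 77.7% of tallied reads lay on genes). The annotation release and strand setting are not given in the sources used here. Multi-mapped reads were not counted on genes, which lowers genes with near-identical copies.

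Counts were analysed in R 4.3.3 with edgeR 4.0.16: filterByExpr, TMM, the quasi-likelihood F test, Benjamini-Hochberg adjustment over all genes tested and a threshold of 0.05. Standard errors are the size of the log2 fold change over the square root of F, hence approximate. Comparisons were each fragment against the untreated samples of its experiment, these changes against each other (an interaction over 4 group means), and one control group against the other. RPKM is CPM over the kilobases of all exons of a gene (GENCODE M21). Genes to name were the 8 members, the 2 genes of each list with the largest called change that had at least 1 CPM in a group and no overlap of treated and control samples, and the 5 most like Nos2 among genes with at least 10 CPM in a group. A gene that this rule names is not reported here. Gucy1a1 and Gucy1b1 were matched by older symbols. The members, lists and rules were chosen with earlier results of these data known. Simulated data were used to test the fits. Alternatives were DESeq2 1.42.0 and its size factors, 2 other count filters, all samples in one fit, a replicate block, leaving out each sample, other pseudocounts and treated samples alone for the likeness to Nos2, and the promoter window with 50 bases after the start.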

Additional observations from a re-analysis of the deposited data

Results flagged for a closer look

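Changes that differed between the fragments by the interaction test were those of Odc1, Asl and Gch1. The log2 fold change of Odc1 was larger with nApoE4 by 0.51 (SE 0.09, edgeR adjusted p-value 0.000698), and the gene was higher in 3 of 3 nApoE4 and 2 of 2 nApoE3 samples than in any of their controls. The value for Asl was -0.36 (adjusted p-value 0.0185), with the gene higher than its controls in 2 of 2 nApoE3 samples and no separation with nApoE4. The value for Gch1 was -0.35 (adjusted p-value 0.0423), with the gene higher in all 5 treated samples. This call was lost in 9 of the 11 fits that left out 1 sample. For Odc1 the treated means stood at a ratio of 1.04 and the untreated means at 1.52 (nApoE3 over nApoE4). Fragment and experiment cannot be told apart in these differences.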

How the results depend on the processing

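Same-numbered treated and control samples did not deviate together (r across 15287 genes -0.171 to -0.00772), so the numbers were not taken to pair samples. With a replicate block, the difference between the fragments was called for 2307 genes (4331 without), 1 member (3 without, Odc1 kept) and 17 list genes (29 without). The block moved the calls to 7036 of 8145 with nApoE4, 9783 of 10034 with nApoE3 and 9376 of 9879 between controls, called Arg1 with nApoE3 (-0.99, adjusted p-value 0.0328) and lost Gch1 (0.0686) and Asl (0.0955) in the difference.

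Of 357 member values under alternatives, 330 kept their direction and side of the threshold, 13 lost the call, 7 gained it and 7 turned. Those that turned were Arg2 values near 0 that passed in no fit. Its difference between the fragments was 0.0133 with genes of at least 1 count and -0.196 to 0.176 over the fits that left out 1 sample, above 0 at 0.05 without control_ApoE4 replicate 3, 0.05 without nApoE4 replicate 1, 0.01 without nApoE4 replicate 2, 0.11 without control_ApoE3 replicate 1 and 0.176 without nApoE3 replicate 2. Between the controls it was -0.205 to 0.0815, the latter without control_ApoE3 replicate 3. Slc7a2 passed in the difference with DESeq2 (adjusted p-value 0.047), with genes of at least 1 count (0.0338) and without control_ApoE4 replicate 2 (0.0425) or 3 (0.0119), and Ass1 without control_ApoE4 replicate 2 (0.0251).

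Leaving out 1 sample at a time, calls over all genes ranged from 7142 to 8827 with nApoE4, 9121 to 9837 with nApoE3, 3040 to 5250 for the difference and 8949 to 10988 between controls, and members called for the difference from 1 to 4, with 1 without either nApoE3 replicate. A fit with 1 nApoE3 sample assumes that it varies like the other samples. The log2 fold change of Nos2 ranged from 6.02 to 6.23 with nApoE4 and from 7.77 to 8.48 with nApoE3. Requiring 10 counts in every sample removed Nos2 from the fits with the nApoE3 controls. Of the 5 genes most like Nos2 by level, 2, 1 and 0 remained with pseudocounts of 0.01 and 1 and with treated samples alone, and of those by deviation 4, 3 and 2. With treated samples alone, the r of Gch1 with Nos2 was -0.233 by level and 0.971 by deviation. The latter ranked 82 of 9357 genes. Over these 5 samples 301 genes had r above 0.9 by deviation, against 8 over all 11 samples. With 50 bases after the start added, the NF-kB-like letters stood in 50.8% of promoters.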
